A study of Xenopus laevis with 12 samples.

Results

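Lactate dehydrogenase, 4 enzymes of glycolysis and 2 enzymes of gluconeogenesis were followed in Xenopus bots with and without neurons. The set was defined by 8 gene symbols (ldha, ldhb, gapdh, pgk1, eno1, aldoa, fbp1 and pck1), each taken with both homeologs where the table lists them, which gave 16 of the 44478 genes. Xenopus laevis is allotetraploid, and the suffixes .L and .S name the copies on its long and short subgenomes. The 8 symbols were picked on the abundance and spread of ldhb.S, gapdh.S and fbp1.L in these same pools. The values of those 3 genes are therefore given as a description without a test, and the other 13 genes were tested.

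The study asked how neural tissue changes the transcriptome of a synthetic living construct, and sequenced polyA RNA in bulk from 12 pools, each made of several bots. Biobots (pools BB1 to BB4) were animal caps, the ectodermal roof of a stage 9 embryo, left to close into a ciliated epidermal body. Neurobots (NB1 to NB4) were animal caps implanted with clumps of animal cap cells that had been kept dissociated for hours, which gives neural precursors. Sham neurobots (SH1 to SH4, called shams here) received clumps that were reaggregated at once after dissociation. Implanted cells of neurobots and shams came from many embryos and the outer cap from another, whereas a biobot is 1 cap. No strain, transgene or drug distinguishes the groups in the sources used here, and the age of the bots at RNA extraction is not given there. The labels do not say that the pools of a type came from separate clutches, so the p-values measure the spread between these pools.

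Glycolysis splits glucose into pyruvate, and lactate dehydrogenase interconverts pyruvate and lactate. Gluconeogenesis runs the reverse route with its own enzymes at the irreversible steps, among them fructose bisphosphatase (fbp1) and phosphoenolpyruvate carboxykinase (pck1). Embryos of Xenopus live on yolk before feeding, and the larval epidermis that animal caps form holds mucus-secreting, multiciliated and ion-transporting cells, the last of which are rich in mitochondria.

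Library totals ran from 27265034 to 37985824 counts. NB1 and BB1 were sent for sequencing in a first submission with more bots per pool, and no sham pool was in it. Per the study's methods, NB1 held only slightly more bots than NB2 to NB4, whereas BB1 held far more than BB2 to BB4. Every neurobot pool held more bots than BB2 to BB4 and every sham pool, so pool size differs with bot type. The coefficients of variation given below carry no factor for pool size, and its part in the spread was not tested. NB1 also stood apart from NB2 to NB4 in the marker lists. The summed level of 13 ionocyte genes (the ion-transporting cells; list led by atp6v1b1.L) was 1267 CPM (counts scaled to a common library total, with TMM factors) in NB1 and from 55.4 to 130 CPM in the other neurobot pools, against 1834 to 2559 CPM in biobots and 1133 to 2118 CPM in shams. The 17 epidermal genes, led by itln1.L, do not tell the epidermal cell types apart. They summed to 43864 CPM in NB1, 33668 CPM in NB2 and 18949 and 20391 CPM in NB3 and NB4. Their sums were 37411 to 46116 CPM in biobots and 25967 to 39626 CPM in shams. Of these genes 14 were tested, and 5 were called higher and 1 lower in neurobots against biobots, and 6 higher and 1 lower against shams, so most called genes of this list were higher in neurobots although its sum was not. Of the ionocyte genes 6 of 10 tested were called lower against biobots and 3 of 11 against shams, with none higher. The 16 neuron genes summed to 362 to 513 CPM in neurobots and to 128 to 167 CPM in the other pools. The 26 radial glia genes summed to 259.5 CPM in NB1, 521 to 717 CPM in NB2 to NB4 and 10.4 to 23.9 CPM elsewhere. The 14 photoreceptor genes summed to 24.6 CPM in NB1 and 159 to 238 CPM in NB2 to NB4 but to no more than 1.25 CPM elsewhere, with 7 of them at 0 in all biobots and 9 in all shams. The 15 multiciliated cell genes summed to 619 CPM in NB1 and 301 to 390 CPM in NB2 to NB4, against 589.6 to 744 CPM in biobots and 516.5 to 811 CPM in shams. Liver genes summed to 1.45 to 28.7 CPM, highest in BB3. Skeletal muscle markers stayed at 2.62 to 5.39 CPM in every pool. Blood markers were under 3.5 CPM except in BB3 with 187 CPM, mostly from hba3.L. The part of these cell types in the results that follow was not tested, and in bulk RNA fewer cells of a type cannot be told apart from less RNA per cell. For the tested genes, neurobot results are given with and without NB1. The fits against biobots without NB1 still hold BB1.

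In the Xenopus laevis v10.1 assembly, ldhb.S lies on chromosome 3S (6880742 to 6893430, minus strand), gapdh.S on 7S (4925931 to 4931512, plus strand) and fbp1.L on 1L (146441299 to 146447122, minus strand). The values are counts over all annotated exons of a gene, and the library kit does not keep the strand.

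ldhb.S, the heart-type subunit of lactate dehydrogenase in vertebrates, was the most abundant of the 16 genes in each bot type. Its mean level, in the FPKM scale that corrects for gene length, was 9379 in biobots, 6589 in shams and 3219.8 in neurobots. By mean FPKM it ranked 5 among all genes of the table in biobots, 5 in shams and 13 in neurobots. In single pools the rank was 4 or 5 in biobots, 5 or 6 in shams and between 8 and 39 in neurobots. Over the pools it was measured at 11885, 11403, 12297 and 13955 CPM in BB1 to BB4, at 6108, 11651, 9259 and 7971 CPM in SH1 to SH4, and at 8708, 3204.5, 2146 and 2559 CPM in NB1 to NB4. All 4 biobot pools lay above all neurobot pools, and the sham range overlapped both, with SH1 the lowest sham and NB1 above SH1 and SH4. The ratio of mean CPM was 2.98 for biobots over neurobots and 2.11 for shams over neurobots. Within the submissions it was 1.37 for BB1 over NB1 and 4.76 for BB2 to BB4 over NB2 to NB4.

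gapdh.S encodes glyceraldehyde-3-phosphate dehydrogenase, the enzyme that makes the first high-energy intermediate and NADH of glycolysis and is often used as a reference gene. It was measured at 6509.5, 5548, 6052 and 5798 CPM in BB1 to BB4, at 3022, 5541, 4291 and 3799 CPM in SH1 to SH4, and at 3942, 1261, 963 and 1102 CPM in NB1 to NB4. Each biobot pool was above each sham and each neurobot pool, although SH2 and BB2 nearly met. The mean was 3.29 times as high in biobots as in neurobots, 1.65 times in the first-submission pair and 5.23 times in the later pools. With a coefficient of variation of 0.0687 it was the most even of the 3 genes across biobots, while across the 4 neurobot pools the coefficient was 0.783 and across NB2 to NB4 it was 0.134.

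fbp1.L, which removes a phosphate from fructose 1,6-bisphosphate in the gluconeogenic direction, was the second most abundant member by FPKM in each bot type (5181 in biobots, 4179 in shams and 2267 in neurobots). Its range overlapped that of gapdh.S in every bot type, but within single pools fbp1.L was the higher in every neurobot and sham pool. Biobots were mixed, with fbp1.L at 4739 CPM and gapdh.S at 5548 CPM in BB2 and fbp1.L the higher in the other biobot pools. fbp1.L was measured at 7064, 4739, 6206 and 6144 CPM in BB1 to BB4, at 3757, 6881, 4537.5 and 4420.0 CPM in SH1 to SH4, and at 5076, 2131, 1414 and 1711 CPM in NB1 to NB4. NB1 lay inside the biobot and sham ranges, and NB2 to NB4 lay below every other pool. The ratio of biobot to neurobot means was 2.34 over all pools, 1.39 in the first submission and 3.25 in the second. Its coefficient of variation was 0.654 in neurobots, 0.159 in biobots and 0.279 in shams, against 0.738, 0.0895 and 0.266 for ldhb.S.

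**Figure D1:**
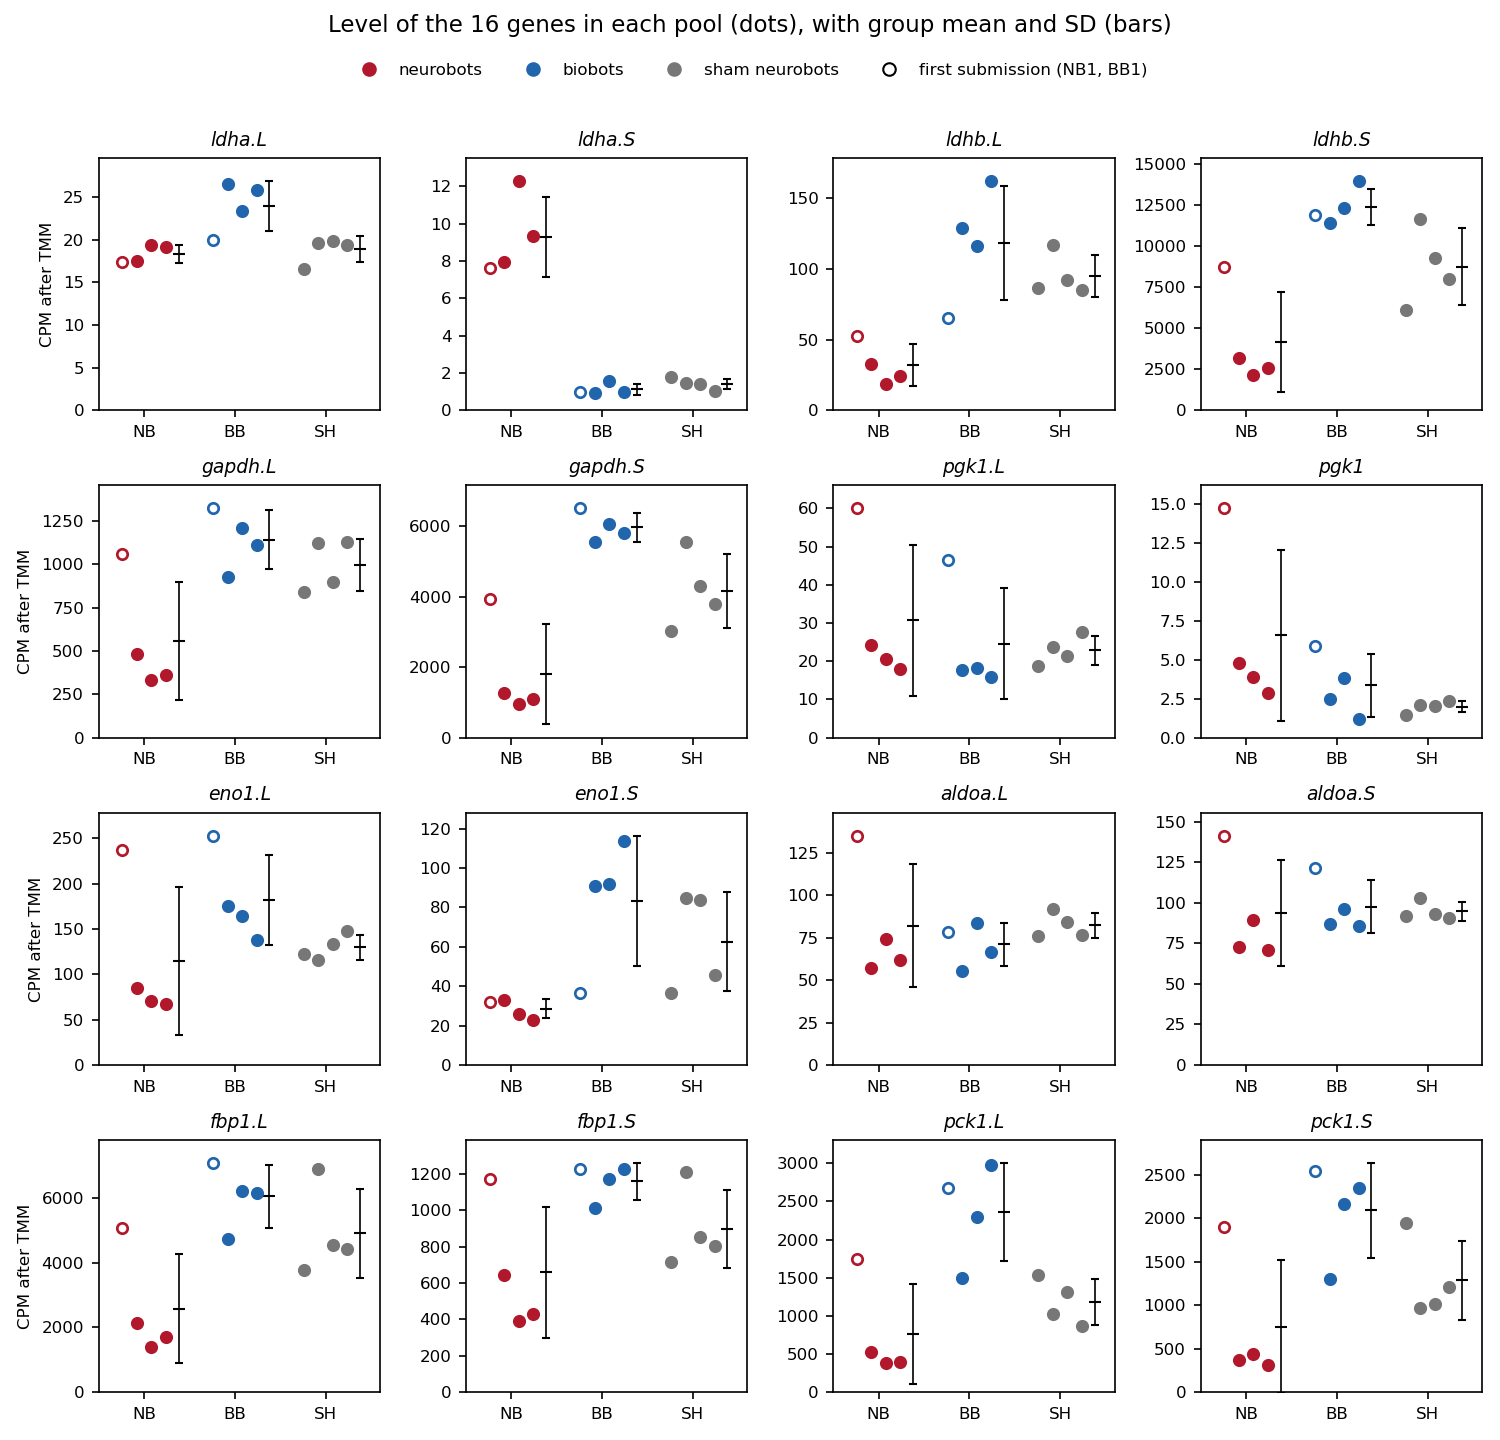
Level of each of the 16 genes in CPM after TMM scaling (vertical axis, linear, from 0) in the pools of neurobots (NB), biobots (BB) and shams (SH). Each dot is 1 pool, open dots are the first-submission pools NB1 and BB1, and bars give the group mean and SD (n = 4), cut at 0 for pck1.S in neurobots. For ldhb.S, gapdh.S, fbp1.L, pck1.L and pck1.S the open neurobot dot lies far above the other 3, which cluster below all biobot and sham pools. ldha.S shows the opposite order, with every neurobot pool on top.

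The genes whose pattern over the 12 pools was most like these 3 were sought among 15788 genes with a mean of at least 5 CPM, by Pearson's r of log2(CPM + 1). For ldhb.S they were gapdh.S (r = 0.994), suclg1.L (0.988), which encodes a succinate-CoA ligase subunit of the citric acid cycle, and LOC108696925 (0.988), annotated as a serine protease inhibitor. For gapdh.S they were ldhb.S (0.994), rab3d.S (0.988), a small GTPase of secretory vesicles, and LOC108696925 (0.987). For fbp1.L they included txn2.L (0.985), the mitochondrial thioredoxin, and gapdh.S (0.983). The 12 points share bot type and submission and fall into groups, so these values describe likeness over these pools and carry no p. Because ldhb.S, gapdh.S and fbp1.L were picked together for their abundance and spread, their likeness to each other gives no independent support.

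The 16 genes together took 0.751% to 2.07% of all counts in neurobot pools (2.07% in NB1), 2.63% to 3.22% in biobot pools and 2.17% to 2.67% in sham pools. Of those counts, 70.2% to 83.2% fell on ldhb.S, gapdh.S and fbp1.L in every pool. The values of these 3 genes chose the set, so the totals are a description only. The next level by FPKM was held by gapdh.L, fbp1.S, pck1.L and pck1.S, with biobot means of 965, 907, 874 and 771 and overlapping ranges. eno1.L, ldhb.L, aldoa.S, aldoa.L and eno1.S followed between 95.2 and 41.7 in biobots. ldha.L and pgk1.L averaged 14.3 and 13.9, and pgk1 and ldha.S closed the order at 1.92 and 0.648. In neurobots the same 7 genes led, and ldha.S (5.54) stood above pgk1 (3.83) at the bottom, with overlapping ranges. All 16 genes passed the filter on low counts in all 3 comparisons.

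In the edgeR quasi-likelihood test with Benjamini-Hochberg adjustment over all genes tested, 1 of the 13 tested genes was higher in neurobots than in biobots (ldha.S) and 4 were lower (ldhb.L, eno1.S, pck1.L and gapdh.L). Over the 24082 genes of this comparison 19.5% were called higher and 12.3% lower. The median log2 fold change of the 13 was -0.65, against 0.03 over all genes. Without NB1 the counts were 1 higher and 7 lower, with a median of -1.25, where 25.2% of all genes were called higher and 18.3% lower, and the added genes were eno1.L, fbp1.S and pck1.S. Against shams, 2 of the 13 were higher in neurobots (ldha.S and pgk1) and 2 lower (ldhb.L and eno1.S), where 19.6% and 13.2% of 24542 genes were called, and the median was -0.18 against 0.01. Without NB1 there were 2 higher and 7 lower, with a median of -0.81, where 24.4% and 18.6% of all genes were called. The comparisons with biobots and with shams use the same neurobot pools.

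ldha.L lies on chromosome 4L (224749 to 231221, plus strand) and ldha.S on 4S (23501528 to 23508301, minus strand). ldha, the muscle-type subunit that in vertebrates is associated with lactate production, was the minor lactate dehydrogenase here. Its .S copy was the one gene of the 13 that passed the test as higher in neurobots against biobots and also against shams. ldha.S was measured at 7.60, 7.97, 12.3 and 9.32 CPM in NB1 to NB4, at 0.968, 0.940, 1.55 and 0.996 CPM in BB1 to BB4, and at 1.76, 1.45, 1.40 and 1.05 CPM in SH1 to SH4. No neurobot pool overlapped another type, and NB1 was the lowest of the neurobot pools, unlike for the abundant genes. The log2 fold change was 3.08 ± 0.28 (SE; edgeR adjusted p = 3.9e-05) against biobots and 2.72 ± 0.26 (adjusted p = 6.4e-05) against shams. It was 3.15 and 2.80 without NB1 (adjusted p = 1.4e-05 and 2.9e-05), and NB1 alone was 7.85 times BB1. ldha.L, in contrast, lay between 16.6 and 26.6 CPM in all 12 pools. Its 4 biobot pools (20.0 to 26.6 CPM) were above the 4 neurobot pools (17.3 to 19.3 CPM), with a log2 fold change of -0.37 ± 0.16 that did not pass the test (edgeR adjusted p = 0.0997), and against shams the difference was -0.04 ± 0.14 (adjusted p = 0.848). Without BB1 the difference from biobots passed the test (-0.45, adjusted p = 0.0496), and without NB1 the differences were -0.36 and -0.02.

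The share of the .L copy in ldha FPKM was accordingly 61.8% to 70.2% in neurobots, 93.9% to 96.7% in biobots and 90.7% to 95.0% in shams. Both copies of ldha together made up 0.223%, 0.611%, 1.13% and 0.853% of all ldha and ldhb FPKM in NB1 to NB4, against 0.138% to 0.188% in biobots and 0.141% to 0.232% in shams. NB1 lay inside the sham range on this share and NB2 to NB4 above every other pool. ldhb therefore made up nearly all lactate dehydrogenase RNA in each pool on this scale. Most of it was ldhb.S, whose values helped to choose the set, so this share is a description only.

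ldhb.L (chromosome 3L, 20305776 to 20320206, minus strand) encodes the same subunit as ldhb.S from the other subgenome and held only 0.581% to 1.48% of ldhb FPKM. It was measured at 65.3, 129, 116.5 and 162 CPM in BB1 to BB4, at 86.5, 117, 92.3 and 85.0 CPM in SH1 to SH4, and at 52.9, 32.5, 18.8 and 24.2 CPM in NB1 to NB4. Every neurobot pool was below every pool of the other types, with NB1 and BB1 the closest pair. It fell by 1.86 ± 0.35 on the log2 scale against biobots (edgeR adjusted p = 0.00223) and by 1.57 ± 0.29 against shams (adjusted p = 0.00288). The values without NB1 were -2.23 (adjusted p = 2.6e-04) and -1.92 (adjusted p = 1.4e-04). Homeologs and other near-identical copies can share reads, and the share of ldhb.S reads among those counted on ldhb.L was not tested.

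gapdh.L (chromosome 7L, 7788246 to 7794816, plus strand) was measured at 1323, 925, 1209.9 and 1113 CPM in BB1 to BB4, at 838, 1122, 900.5 and 1126 CPM in SH1 to SH4, and at 1058, 485.5, 330.0 and 360.1 CPM in NB1 to NB4. Only NB1 reached into the ranges of the other types. The difference from biobots was -1.01 ± 0.35 (edgeR adjusted p = 0.0495), and the call was lost on leaving out any other pool than NB1, with adjusted p from 0.0637 to 0.123. Without NB1 it was -1.54 ± 0.21 (adjusted p = 2.6e-04). Against shams it was -0.83 ± 0.36 (adjusted p = 0.102), and without NB1 it was -1.35 ± 0.23 (adjusted p = 0.00128).

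eno1 encodes enolase, which makes phosphoenolpyruvate near the end of glycolysis, and its copies behaved differently in the first-submission pools. eno1.L lies on chromosome 7L (91935763 to 91947166) and eno1.S on 7S (78090134 to 78104848), both on the minus strand. eno1.S was measured at 36.3, 91.1, 92.0 and 114 CPM in BB1 to BB4, at 36.7, 84.6, 83.9 and 45.5 CPM in SH1 to SH4, and at 32.1, 32.9, 25.9 and 23.1 CPM in NB1 to NB4. All neurobot pools were lowest, but BB1 and SH1 lay just above them. The fall was 1.52 ± 0.30 on the log2 scale against biobots (edgeR adjusted p = 0.00319) and 1.13 ± 0.28 against shams (adjusted p = 0.0120), and it stayed past the threshold without NB1 (-1.60 and -1.20). eno1.L was measured at 253, 175, 164 and 137.5 CPM in BB1 to BB4, at 122, 116, 134 and 148 CPM in SH1 to SH4, and at 237, 84.8, 71.0 and 67.0 CPM in NB1 to NB4. NB1 stood at the level of BB1, and NB2 to NB4 were below every other pool. The differences were -0.65 ± 0.40 (adjusted p = 0.239) and -0.18 ± 0.38 (adjusted p = 0.744) with NB1, and -1.29 ± 0.22 (adjusted p = 9.1e-04) and -0.81 ± 0.16 (adjusted p = 0.00295) without it. The .L share of eno1 FPKM was 88.5% in NB1 and 87.9% in BB1, against 72.8% to 75.1% in NB2 to NB4, 55.6% to 66.7% in BB2 to BB4 and 58.7% to 77.6% in shams.

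pgk1, phosphoglycerate kinase, forms the first ATP of glycolysis. Both listed genes were low beside gapdh, which acts just before it. pgk1.L on chromosome 8L (51556307 to 51569627, plus strand) was measured at 60.0, 24.3, 20.6 and 17.9 CPM in NB1 to NB4, at 46.5, 17.8, 18.3 and 15.9 CPM in BB1 to BB4, and at 18.8, 23.7, 21.3 and 27.7 CPM in SH1 to SH4. NB1 and BB1 were the 2 highest pools, and the later pools of all types overlapped. Neither comparison called it (0.34 ± 0.45, edgeR adjusted p = 0.600 against biobots, and 0.43 ± 0.35, adjusted p = 0.373 against shams). Without NB1 the sign turned in both (-0.23 and -0.13), with BB1 kept in the fit against biobots. Over the later pools the ratio of biobot to neurobot mean CPM was 0.826, with neurobots the higher.

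The other gene named pgk1 carries no subgenome suffix. It lies on chromosome 5S (133473264 to 133474983, plus strand), not opposite pgk1.L, and its exonic length of 1720 bases equals its whole span, so the annotation gives it no intron. It was measured at 14.8, 4.78, 3.90 and 2.87 CPM in NB1 to NB4, at 5.88, 2.51, 3.85 and 1.20 CPM in BB1 to BB4, and at 1.49, 2.11, 2.06 and 2.35 CPM in SH1 to SH4. Every neurobot pool was above every sham pool, and the log2 fold change was 1.71 ± 0.49 (edgeR adjusted p = 0.0225), or 0.94 ± 0.26 (adjusted p = 0.0174) without NB1. The call was lost without SH1 (adjusted p = 0.0601) or SH3 (0.0570). Against biobots the pools overlapped, with 0.99 ± 0.58 (adjusted p = 0.218), or 0.20 without NB1 but with BB1 kept. Over the later pools the ratio of biobot to neurobot mean CPM was 0.654. Reads shared with pgk1.L could change these values and were not tested.

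aldoa, the aldolase of muscle and many other tissues, was the only symbol with both copies tested and neither called in any comparison. aldoa.L lay between 55.5 and 135 CPM and aldoa.S between 71.0 and 141 CPM, with NB1 the highest pool for each. Their genes lie on the plus strand of chromosomes 9_10L (135339229 to 135348524) and 9_10S (115238096 to 115245824). The log2 fold changes against biobots were 0.23 ± 0.27 (edgeR adjusted p = 0.556) and -0.04 ± 0.24 (adjusted p = 0.917), and without NB1 they were -0.14 and -0.32 with neither called. Against shams they were 0.00 and -0.01, and -0.35 and -0.29 without NB1, again with neither called. The .L share was 38.8% to 48.6% of aldoa FPKM over all pools.

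fbp1.S (chromosome 1S, 125318536 to 125325233, minus strand) was measured at 1224, 1012, 1171 and 1223 CPM in BB1 to BB4, at 716, 1207, 852 and 805 CPM in SH1 to SH4, and at 1171, 644, 389.7 and 429 CPM in NB1 to NB4. NB1 was inside the biobot range and NB2 to NB4 were below every other pool. The differences were -0.79 ± 0.33 (edgeR adjusted p = 0.0882) from biobots and -0.44 ± 0.35 (adjusted p = 0.360) from shams, and without NB1 they were -1.25 ± 0.22 (adjusted p = 0.00102) and -0.88 ± 0.26 (adjusted p = 0.0244). Its share of fbp1 was a little larger in neurobots, with the .L copy at 78.4% to 82.6% against 83.7% to 86.3% in biobots and 85.2% to 86.2% in shams. The values of fbp1.L helped to choose the set, so this share is a description only.

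pck1 encodes the cytosolic phosphoenolpyruvate carboxykinase that turns oxaloacetate into phosphoenolpyruvate. Its copies lie on the plus strand of chromosomes 9_10L (14042389 to 14047901) and 9_10S (12736233 to 12741566). pck1.L was measured at 2679, 1499.6, 2297 and 2977.5 CPM in BB1 to BB4, at 1532, 1023, 1311 and 866.5 CPM in SH1 to SH4, and at 1747, 531, 383 and 397.5 CPM in NB1 to NB4. pck1.S was measured at 2537, 1307, 2164 and 2350.1 CPM in BB1 to BB4, at 1945, 969, 1013 and 1214 CPM in SH1 to SH4, and at 1894, 367, 438 and 318 CPM in NB1 to NB4. For both copies NB1 lay above at least 3 of the 4 sham pools and NB2 to NB4 lay below every other pool. The spread of pck1.S was the widest of the 16 genes, with a coefficient of variation of 1.01 over the 4 neurobot pools and 0.161 over NB2 to NB4. pck1.L fell against biobots by 1.61 ± 0.49 on the log2 scale (edgeR adjusted p = 0.0273), a call lost without BB1, BB4, NB2, NB3 or NB4 (adjusted p 0.0560 to 0.0873), and pck1.S differed by -1.45 ± 0.55 (adjusted p = 0.0650). Without NB1 the values were -2.43 ± 0.28 (adjusted p = 7.9e-05) and -2.48 ± 0.27 (adjusted p = 6.4e-05). Against shams they were -0.63 ± 0.48 (adjusted p = 0.331) and -0.77 ± 0.56 (adjusted p = 0.308) with NB1, and -1.44 ± 0.26 (adjusted p = 0.00208) and -1.79 ± 0.30 (adjusted p = 0.00137) without it.

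**Figure D2:**
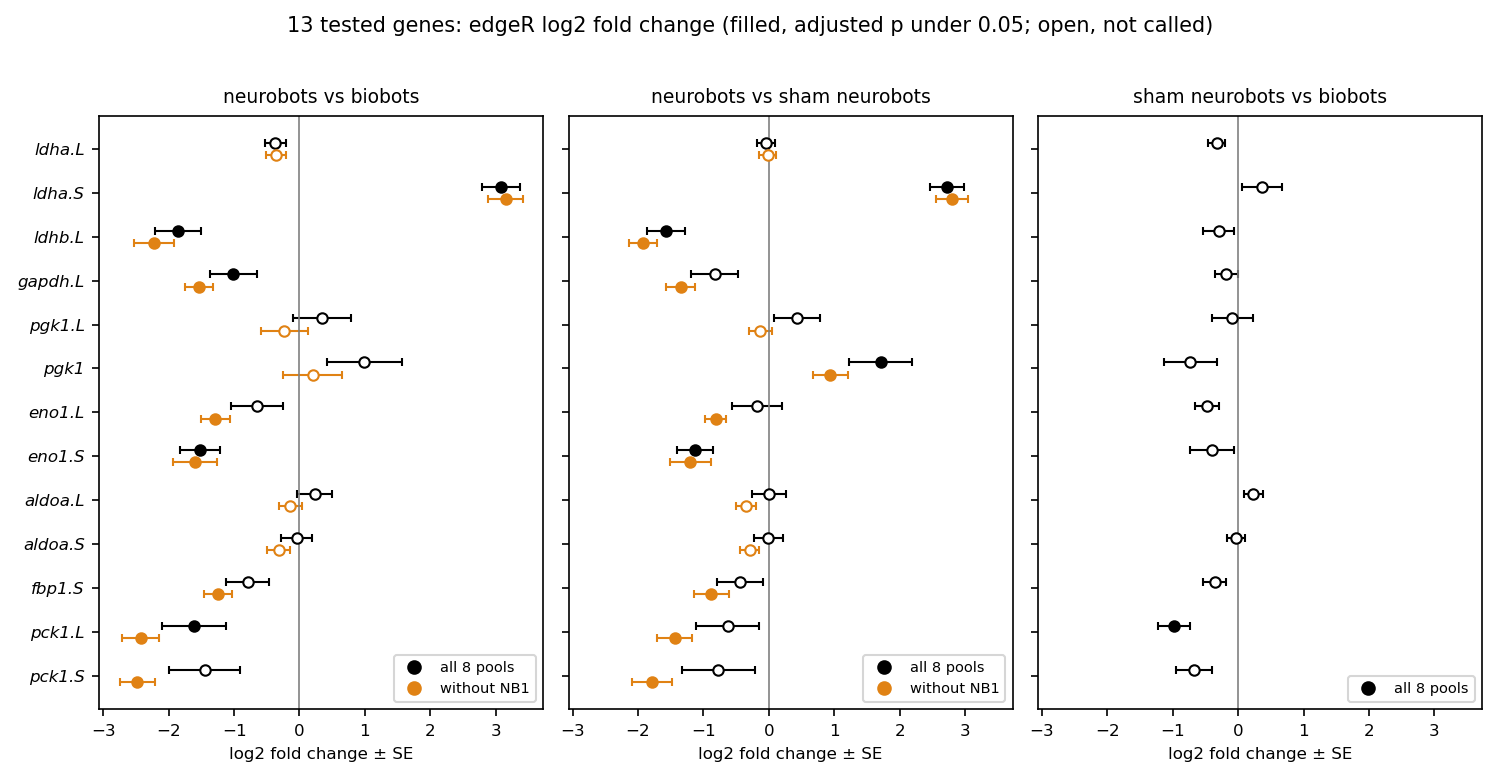
Log2 fold change (horizontal axis) with its SE for the 13 tested genes (vertical axis) in each of the 3 comparisons, from edgeR. Black is the fit on all 8 pools, orange the fit without NB1, and filled dots have an adjusted p under 0.05. ldha.S lies near 3 on the right in both neurobot comparisons, and leaving out NB1 moves eno1.L, fbp1.S and pck1.S to the left and past the threshold.

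Few of the 13 tested genes were called between shams and biobots. None of the 13 was called higher and 1 was called lower in shams (pck1.L), where 3.55% of 22764 genes were called higher and 2.19% lower, with 4 of the 13 at an unadjusted p under 0.05 and 1 called by DESeq2. The log2 fold change of pck1.L was -0.98 ± 0.25 (edgeR adjusted p = 0.0465), and the call was lost without BB1, BB3, BB4, SH3 or SH4 (adjusted p 0.0521 to 0.134). SH1 lay above BB2, so the pools overlapped. The median over the 13 was -0.33 against -0.00 over all genes, and 11 of the 13 had a negative sign. For the described genes the ratio of sham to biobot means was 0.706 for ldhb.S, 0.697 for gapdh.S and 0.811 for fbp1.L. ldha.L was lower in all 4 shams (16.6 to 19.9 CPM) than in all 4 biobots (20.0 to 26.6 CPM), at -0.33 ± 0.13 (adjusted p = 0.138), and it passed the test without BB1 (-0.40, adjusted p = 0.0484). fbp1.S, at -0.36 ± 0.18 (adjusted p = 0.244), passed it without SH2 (-0.53, adjusted p = 0.0330).

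Ratios between enzymes that face each other in the pathway, taken from FPKM, set the members beside their partners. gapdh over pgk1 was 79.4 to 106 in neurobots, with NB1 at 101, against 226 to 610 in biobots and 247 to 390 in shams, so the neurobot range did not meet the others even with NB1. fbp1 over the phosphofructokinases pfkp and pfkm, which catalyse the opposite step, was 38.8, 32.5, 12.95 and 16.9 in NB1 to NB4, 31.8 to 39.5 in biobots and 26.1 to 58.4 in shams. pck1 over the pyruvate kinases pkm and pklr was 12.7 in NB1 and 2.71 to 3.18 in NB2 to NB4, against 10.2 to 21.0 in biobots and 8.10 to 12.5 in shams. These ratios are descriptions and were not tested. Most gapdh and fbp1 FPKM came from gapdh.S and fbp1.L, whose values helped to choose the set, so the gapdh and fbp1 ratios give no independent support.

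**Figure D3:**
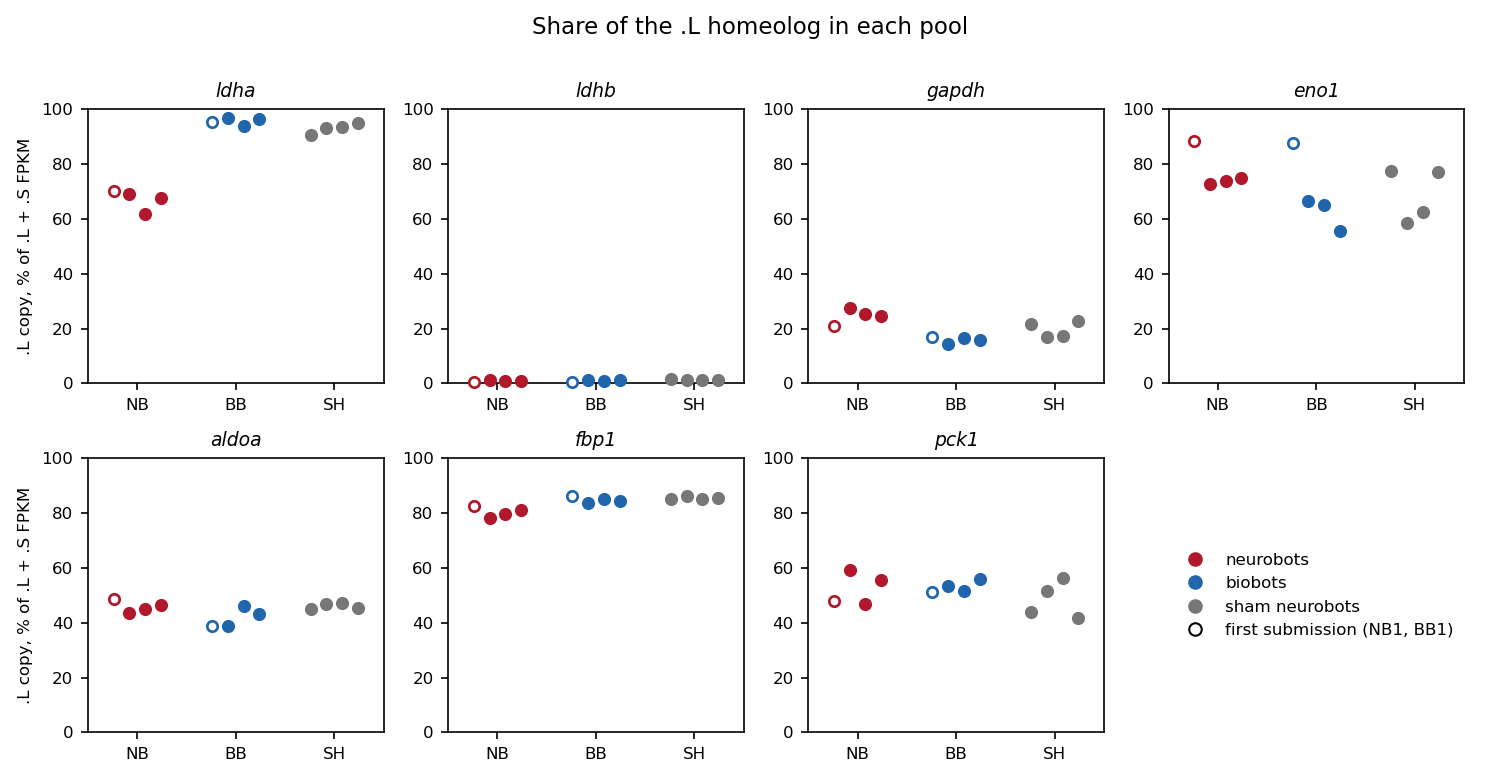
Share of the .L copy in the summed FPKM of the .L and .S copies, in percent (vertical axis, 0 to 100), for the 7 gene pairs in each pool of neurobots (NB), biobots (BB) and shams (SH). Dots are pools and open dots are NB1 and BB1. ldha is the pair whose share differs most between bot types, at 61.8% to 70.2% in neurobots and at least 90.7% elsewhere, while for eno1 the open dots, at 88.5% and 87.9%, lie above the other pools of their type.

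The homeolog shares of gapdh and pck1 moved less than those of ldha and eno1. The .L share of gapdh FPKM was 21.0% to 27.7% in neurobots, 14.2% to 16.8% in biobots and 16.8% to 22.7% in shams. Every neurobot pool was above every biobot pool on this share, and the sham range overlapped that of neurobots. The values of gapdh.S helped to choose the set, so the gapdh share is a description only. For pck1 it was 46.7% to 59.2% in neurobots, 51.4% to 56.0% in biobots and 41.7% to 56.5% in shams, and these ranges overlapped. The .S copy therefore led for ldhb and gapdh, and by a smaller margin for aldoa, in all 12 pools. The .L copy led for ldha, fbp1 and eno1 in all 12 pools. For pck1 the leading copy differed between pools, with the .L share at 41.7% to 59.2%.

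The wider pathway was followed with 54 further symbols of glucose transport, glycolysis, lactate and pyruvate handling and gluconeogenesis, of which 44 were found as 76 genes and 68 passed the filter. Against biobots 6 of the 68 were higher in neurobots and 29 lower, with a median log2 fold change of -0.62, and without NB1 they were 9 and 40 with a median of -0.82. Against shams 8 were higher and 15 lower, with a median of -0.32, and without NB1 they were 10 and 31 with a median of -0.48. The shares of all genes called in these comparisons are those given above.

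The other gluconeogenic genes had 6 of 9 lower and none higher against biobots (median -1.37), and 2 of 9 lower against shams (median -0.74). Without NB1 it was 8 and 5 of 9. Over all genes 12.3% were called lower against biobots and 13.2% against shams, and 18.3% and 18.6% without NB1. pc.1.L, pyruvate carboxylase, which feeds pyruvate into the route in mitochondria, was measured at 315, 244, 342.5 and 413 CPM in NB1 to NB4, at 1377, 915, 818.5 and 981 CPM in BB1 to BB4, and at 1208, 793, 958 and 896 CPM in SH1 to SH4. All neurobot pools, NB1 included, were below all others. pc.1.L fell by 1.62 ± 0.24 (edgeR adjusted p = 5.5e-04) against biobots and by 1.55 ± 0.24 (adjusted p = 8.8e-04) against shams, with -1.61 and -1.54 without NB1. pck2.L and pck2.S, the mitochondrial counterparts of pck1, fell against biobots by 1.36 ± 0.35 (adjusted p = 0.0134) and 1.53 ± 0.44 (adjusted p = 0.0230). Against shams they were -0.98 (adjusted p = 0.0568) and -0.97 (adjusted p = 0.110), and without NB1 they fell by 1.49 and 1.71. The values without NB1 against biobots were -1.87 and -2.28. pck2.S lost its call against biobots without BB1, NB2, NB3 or NB4 (adjusted p 0.0572 to 0.0678). g6pc1.3.L and g6pc1.3.S are annotated as catalytic subunits of glucose-6-phosphatase, which frees glucose at the last step, and were not called on all pools. Their differences from biobots were 0.09 ± 0.37 (adjusted p = 0.871) and -0.72 ± 0.38 (adjusted p = 0.180). NB1 held the highest g6pc1.3.L level of all pools at 3163 CPM, and without it the difference was -0.43 (adjusted p = 0.185), whereas g6pc1.3.S was called lower without NB1 (-1.20, adjusted p = 0.00842). Against shams the differences of g6pc1.3.L and g6pc1.3.S were 0.67 and 0.24, and 0.16 and -0.23 without NB1, with none called. The less abundant g6pc1.1.S was called lower against biobots (-2.04, adjusted p = 0.0319, and -3.13 without NB1), and g6pc1.1.L was called without NB1 only (-2.61, adjusted p = 0.00143, against -1.37, adjusted p = 0.153). Shams were as low as neurobots in g6pc1.1.S, with means of 10.3 CPM in shams, 10.9 CPM in neurobots and 45.15 CPM in biobots. Its neurobot and biobot pools overlapped, with NB1 at 28.0 CPM and BB2 at 15.2 CPM. For g6pc1.1.L the means were 69.9 CPM in shams, 42.1 CPM in neurobots and 110.3 CPM in biobots.

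Genes of lactate and pyruvate handling were lower in 11 and higher in 1 of 21 against biobots (median -0.83), and lower in 6 and higher in 2 against shams (median -0.48). Over all genes 12.3% were lower and 19.5% higher against biobots, and 13.2% and 19.6% against shams. Leaving out NB1 raised these shares to 18.3% and 25.2%, and to 18.6% and 24.4%. Without NB1 the lactate and pyruvate genes were lower in 15 and higher in 2 against biobots (median -1.25). Against shams they were lower in 13 and higher in 2 (median -0.64), so the count of lower genes against shams rests on whether NB1 is included. slc16a1.L, a monocarboxylate transporter that carries lactate across the plasma membrane, was measured at 37.97 to 79.4 CPM in neurobots, 154 to 237.5 CPM in biobots and 133 to 206 CPM in shams. It fell by 1.76 ± 0.26 (edgeR adjusted p = 4.9e-04) against biobots and by 1.68 ± 0.26 (adjusted p = 8.7e-04) against shams, with -2.04 and -1.95 without NB1. Its other copy, slc16a1.S, was at 6.57 to 13.4 CPM in neurobots, 4.82 to 8.12 CPM in biobots and 3.61 to 5.72 CPM in shams. It was not called against biobots (0.53, adjusted p = 0.147). For the related slc16a3, the .S copy was called higher against biobots (1.55, adjusted p = 0.00486) and the .L copy lower (-0.91, adjusted p = 0.00988). bsg.L, basigin, the chaperone of such transporters, fell by 1.05 ± 0.33 (adjusted p = 0.0326) against biobots, a call lost without BB1, BB3, BB4, NB2, NB3 or NB4 (adjusted p 0.0652 to 0.0940). The pyruvate carrier subunits of the inner mitochondrial membrane differed from biobots by -0.93 (mpc1.L, adjusted p = 0.0485), -0.83 (mpc1.S, adjusted p = 0.0814) and -1.04 (mpc2.S, adjusted p = 0.0373). The calls of mpc1.L (adjusted p 0.0595 to 0.114) and mpc2.S (0.0553 to 0.0936) were lost on leaving out any 1 pool but NB1, and that of mpc1.L also with a replicate block (0.0636). Without NB1 the differences from biobots were -1.53 for bsg.L, -1.32 for mpc1.L, -1.30 for mpc1.S and -1.52 for mpc2.S, all called. Against shams bsg.L and the 3 carrier genes were not called with NB1 (-0.51 to -0.73) and were called without it (-0.88 to -1.20). pdk3.L, a kinase that inhibits pyruvate dehydrogenase, was measured at 4.59 to 12.6 CPM in neurobots, 15.4 to 22.2 CPM in shams and 26.1 to 57.7 CPM in biobots, with no overlap between any of the 3 types. It fell by 2.25 ± 0.35 (adjusted p = 7.7e-04) in neurobots and by 1.08 ± 0.23 (adjusted p = 0.0258) in shams against biobots, where the sham call was lost without BB2, BB4, SH1, SH3 or SH4 (adjusted p 0.0544 to 0.0869). Between neurobots and shams the difference was -1.16 ± 0.31 (adjusted p = 0.0182). Without NB1 the neurobot values were -2.06 and -0.97.

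Among 11 other genes of upper glycolysis, 3 were called higher and 2 lower against biobots, and 3 higher and 1 lower against shams, shares near those of all genes (19.5% and 12.3%, and 19.6% and 13.2%). Without NB1 the counts were 3 higher and 5 lower against biobots and 3 and 3 against shams. Over all genes 25.2% were then called higher and 18.3% lower against biobots, and 24.4% and 18.6% against shams. The nearness to these shares therefore holds for the counts with NB1 only. pfkm.L, muscle-type phosphofructokinase, rose by 2.09 ± 0.54 (edgeR adjusted p = 0.0134) and 2.96 ± 0.42 (adjusted p = 5.7e-04) against biobots and shams, from 0.228 to 1.19 CPM in biobots and 0.242 to 0.723 CPM in shams to 2.20 to 3.58 CPM in neurobots. Without NB1 the values were 2.11 and 2.98. pfkp.L, the phosphofructokinase with the highest level here, fell by 0.76 ± 0.24 (adjusted p = 0.0330) against biobots and differed from shams by -0.28 (adjusted p = 0.392), and without NB1 by -0.92 and -0.42. Its call against biobots was lost without BB1, BB2, BB3, BB4, NB2 or NB4 (adjusted p 0.0508 to 0.0769) and with library size alone (0.0651).

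At the hexokinase step, which phosphorylates glucose, 1 of 7 tested genes was higher and 4 lower against biobots (19.5% and 12.3% of all genes), and 1 higher and 2 lower against shams (19.6% and 13.2%). Without NB1 it was 2 higher and 4 lower in both comparisons, with hkdc1.S added as higher (0.70 against biobots, adjusted p = 0.00490, and 0.80 against shams, adjusted p = 0.00474). Over all genes 25.2% were then higher and 18.3% lower against biobots, and 24.4% and 18.6% against shams. hkdc1.L, a hexokinase family member, was measured at 2.72 CPM in NB1 and 12.7 to 16.3 CPM in NB2 to NB4, against 2.01 to 2.62 CPM in biobots and 1.57 to 4.31 CPM in shams. It rose by 2.21 ± 0.45 (edgeR adjusted p = 0.00366) against biobots and by 2.17 ± 0.52 (adjusted p = 0.0103) against shams. hk2.L fell by 2.38 ± 0.59 (adjusted p = 0.0104) and gckr.L, the regulator of glucokinase, by 2.19 ± 0.58 (adjusted p = 0.0154) against biobots, where neither gene passed 3.11 CPM in any pool. Without NB1 the differences were 2.51 for hkdc1.L (2.48 against shams), -3.32 for hk2.L and -2.50 for gckr.L. Against shams gckr.L fell by 2.80 ± 0.56 (adjusted p = 0.00399), or by 3.09 without NB1. slc2a2.S, a glucose transporter known from liver and gut, was at 36.9 to 53.5 CPM in neurobots and 118 to 159 CPM in the other 8 pools, and fell by 1.51 ± 0.18 (adjusted p = 1.6e-04) against biobots and by 1.68 ± 0.16 (adjusted p = 7.3e-05) against shams, with -1.57 and -1.73 without NB1. Neither copy of either pyruvate kinase, pkm or pklr, was called in any comparison on all pools. Without NB1, pkm.L was called higher (0.53 against biobots and 0.53 against shams) and pklr.S lower (-0.84 and -0.63).

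**Figure D4:**
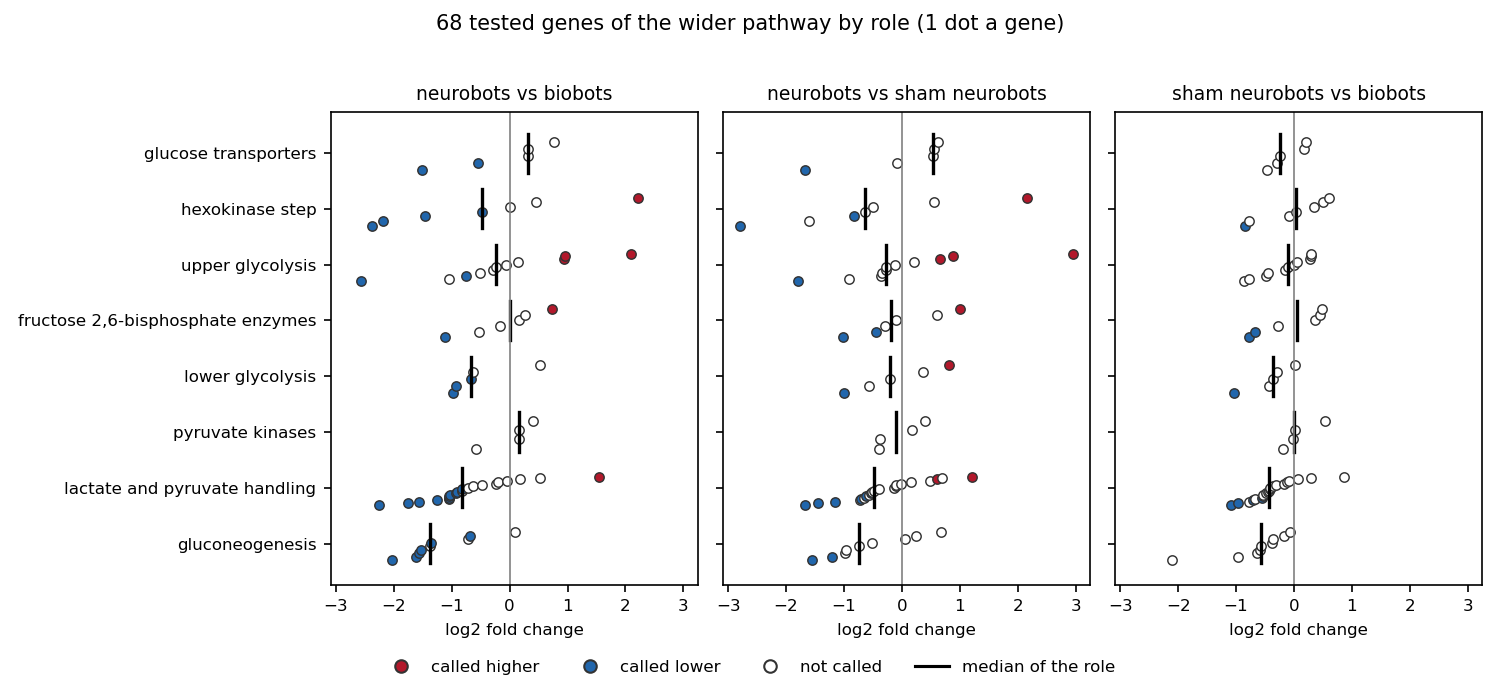
Log2 fold change (horizontal axis, edgeR, all 8 pools of a comparison) of the 68 tested genes of the wider pathway, grouped by role (vertical axis), with 1 dot a gene and a bar at the median of the role. Blue dots were called lower, red dots higher and open dots were not called. The gluconeogenesis and the lactate and pyruvate rows have their medians at -1.37 and -0.83 against biobots, while hexokinase step and upper glycolysis hold called genes on both sides.

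Between shams and biobots 8 of the 68 wider pathway genes were called lower and none higher (median -0.30), where 2.19% of all genes were called lower and 3.55% higher. The largest differences without overlap were pdk3.L (given above), pgam1.S, a phosphoglycerate mutase, which fell by 1.03 ± 0.19 (edgeR adjusted p = 0.0176), pdk4.L, another pyruvate dehydrogenase kinase, by 0.97 ± 0.22 (adjusted p = 0.0324), hk2.S by 0.84 ± 0.18 (adjusted p = 0.0260) and pfkfb1.S, an enzyme that sets fructose 2,6-bisphosphate, by 0.77 ± 0.19 (adjusted p = 0.0396). The number called ranged from 1 to 17 when single pools were left out, so the set of genes called depends on single pools. The summed ionocyte, epidermal and multiciliated cell levels given at the start were higher in NB1 than in NB2 to NB4. So were ldhb.S, gapdh.S, fbp1.L and pck1, and the part of these cell types in these results was not tested.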

How the data were processed

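The authors deposited raw read counts per gene and FPKM for 12 pools, 4 of each bot type. PolyA RNA was sequenced from a low-input non-directional library, although the paper's methods name neither polyA selection nor the strandedness of the library. Per those methods, a NovaSeq was used and adapter-containing and low-quality reads were discarded. The rest were aligned to Xenopus laevis genome version 10.1 and counted per gene. The submitters' processing notes name HISAT2 2.0.5, StringTie 1.3.3b, featureCounts 1.5.0-p3 and DESeq2 1.20.0. The deposited FPKM follow from the counts, gene lengths and size factors (largest relative difference 2.4e-13). Pools were assigned from the labels, no column of values went unused, and 6473 of 44478 genes had no count.

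Tests on the counts used edgeR 4.0.16 under R 4.3.3 (TMM, filterByExpr with minimum count 10 and minimum total 15, robust glmQLFit, glmQLFTest), fitted to the 8 libraries being compared. P-values were adjusted by Benjamini-Hochberg over all genes tested, with a threshold of 0.05. The procedure was tested on simulated data. CPM used TMM factors over all 12 libraries, which had 27265034 to 37985824 counts (median 31373707). Alternatives were DESeq2 1.42.0, library size alone, no filter, all 12 libraries in 1 fit, a replicate block, no first-submission pools and each pool left out. Figures and summaries used Python 3.11.15, pandas 2.3.3, numpy 2.4.6 and matplotlib 3.10.9.

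The genes and lists were chosen with earlier results of these data known. Named were all 16 genes, the 5 wider pathway genes with the largest called changes without overlap in each comparison, every wider pathway gene with a mean of at least 100 FPKM, and the 3 genes most alike in log2(CPM + 1), with a pseudocount of 1 and a mean of at least 5 CPM, to each of the 3 described genes. Other genes named beside these were pkm.L, pklr.S, hkdc1.S, g6pc1.1.L, g6pc1.1.S, slc16a1.S, slc16a3.L and slc16a3.S, chosen after their values were seen. Coordinates are those of the deposited table, and all 16 starts and ends equal those of RefSeq for this assembly. Sequences were not used here, and some genes that the rule names are not reported here.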

Additional observations from a re-analysis of the deposited data

Results flagged for a closer look

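In each bot type the highest or lowest of the 4 pools was compared with its nearest neighbour for the 16 genes (48 groups in all), as the gap divided by the range in CPM. Chance marks about 5% of such groups when they are independent, but these groups share the same pools, so the flags were not set against that rate. ldhb.S and gapdh.S were picked for their spread, so their gaps are a description only. NB1 was the far pool, above the other neurobots, for eno1.L (0.895), gapdh.S (0.900), ldhb.S (0.839), pck1.L (0.891), pck1.S (0.924), pgk1 (0.840) and pgk1.L (0.848). BB1 was the far pool, above the other biobots, for pgk1.L (0.921). BB3 was the highest biobot pool for ldha.S (0.908), at 1.55 CPM, and SH1 the lowest sham pool for ldha.L (0.857), at 16.6 CPM. NB1 and BB1 are the first-submission pools, which held more bots than the later pools of their type, by a smaller margin in neurobots. NB1 also had 1267 CPM of ionocyte genes against 55.4 to 130.0 CPM in NB2 to NB4. It was the highest neurobot pool for the epidermal and multiciliated cell sums too. The part of submission, pool size or cell types in these gaps was not tested.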

How the results depend on the processing

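Over 1016 alternative values of 76 results, 852 kept their direction and side of the threshold, 82 fell below it, 50 came past it and 32 reversed; where no other value is named, the cause was not tested. ldha.S, ldhb.L and eno1.S stayed called against biobots and shams under every alternative run. Of the 13 tested genes 5 were called against biobots, 9 without the first submission and 3 (without BB4, NB2, NB3 or NB4) to 8 (without NB1) when single pools were left out. Against shams 4 were called, and 3 to 9 (without NB1) with a pool left out. Calls over all genes rose without NB1 too, from 19.5% higher and 12.3% lower to 25.2% and 18.3% against biobots. Against shams they rose from 19.6% and 13.2% to 24.4% and 18.6%. The shares over all genes under the other alternatives are not given here, so those counts of called genes have no yardstick. Between shams and biobots 1 was called, 0 with library size alone, 0 with all 12 libraries in 1 fit and 0 with a replicate block, and 0 to 2 with a pool left out. Of the wider pathway, 35 were called against biobots (48 without the first submission; 23 without NB4 to 49 without NB1) and 23 against shams (16 to 41, the latter without NB1). Between shams and biobots 8 were called, 19 with DESeq2, 4 with library size alone, 1 with all 12 libraries, and 1 (without BB4 or SH3) to 17 (without BB1).

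Reversals were of small changes. Against biobots aldoa.L was -0.08 and g6pc1.3.L -0.32 without the first submission, and aldoa.S was 0.04 with library size alone. Against shams aldoa.L was -0.09 with library size alone and -0.004 without the filter, and aldoa.S 0.01 with DESeq2. Between shams and biobots library size alone gave 0.13 for aldoa.S and 0.08 for pgk1.L, and moved the median of all genes from -0.00 to 0.16. With single pools left out, the ranges against biobots were -0.14 to 0.37 (aldoa.L), -0.32 to 0.08 (aldoa.S), -0.43 to 0.28 (g6pc1.3.L) and -0.23 to 0.84 (pgk1.L). Against shams they were -0.35 to 0.14 (aldoa.L), -0.29 to 0.10 (aldoa.S), -0.81 to 0.02 (eno1.L), -0.23 to 0.59 (g6pc1.3.S) and -0.13 to 0.62 (pgk1.L). Between shams and biobots they were -0.09 to 0.09 (aldoa.S) and -0.26 to 0.42 (pgk1.L).

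The replicate numbers did not pair the pools (correlation of same-numbered deviations -0.408 to 0.51). With the replicate block 7 of the 13 genes were called against biobots and 4 against shams, and of the wider pathway 34, 22 and 7 in the 3 comparisons. The block gave -0.02 for g6pc1.3.L against biobots, -0.09 for aldoa.L against shams and 0.06 for pgk1.L between shams and biobots, and pgk1 against shams was not called (1.39, adjusted p = 0.0808). Sham pools cannot be compared across submissions.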
